A study of Mus musculus with 2 samples.

Results

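Semaphorins, plexins and neuropilins, the ligands and receptors of a large guidance system of the developing nervous system and vessels, were examined in the brains of E10.5 mouse embryos, Plzf lu/lu (luxoid) against wild type. The members were all probes whose gene name on the array was that of a semaphorin (Sema, a class number and a letter), a plexin A to D or a neuropilin. There were 31 such genes with 77 probes of 60 bases, 20 semaphorins, 9 plexins and 2 neuropilins, among 37071 gene names and 56601 probes on the arrays. Plzf lu/lu embryos carry the spontaneous luxoid mutation, a point mutation early in the coding sequence of Plzf (Zbtb16, a zinc finger transcription repressor) that truncates the protein, and wild type embryos were C57BL/6. Total RNA was labeled with Cy3 for wild type and Cy5 for Plzf lu/lu on both of 2 Agilent arrays, so each array set 1 Plzf lu/lu sample against 1 wild type sample. No dye swap was made, and a dye effect of a probe and the genotype cannot be told apart. The tissue was forebrain and midbrain according to the methods, and the number of embryos behind each sample was not given in the sources used here.

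Semaphorins of class 3 are secreted, those of classes 4, 5 and 6 span the membrane, and class 7 is held by a lipid anchor. Plexins are the receptors that pass the signal on to small GTPases and the cytoskeleton, while neuropilins bind most class 3 semaphorins and hand them to plexins of the A group. Neuropilins also bind vascular endothelial growth factors, and plexin D1, a receptor for Sema3e, is best known from endothelial cells.

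Of the 31 genes, 15 exceeded a processed signal of 200, with a signal-to-noise ratio of 5 or more, in all 4 channels and were tested on their brightest probe, together with 10600 genes in all. Among the 15, Nrp2, Sema4c and Plxnb1 were higher in Plzf lu/lu by more than 1.3-fold, the threshold of the methods, on both arrays. Plxnd1 was lower by more than 1.3-fold on both arrays. Over all genes tested, 2.58% were higher by this rule and 0.736% were lower. None of the 15 members had an adjusted p under 0.05 (limma, Benjamini-Hochberg adjusted across the genes tested), as against 0.0283% of all genes, and the lowest adjusted p of a member was 0.0510. At an unadjusted limma p under 0.05 there were 5 members, or 33.3%, beside 27.8% of all genes. The median log2 ratio of the 15 was 0.07, beside 0.01 over all genes. With 2 arrays, an exact sign-flip test of a single gene cannot give a p below 0.5.

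**Figure D1:**
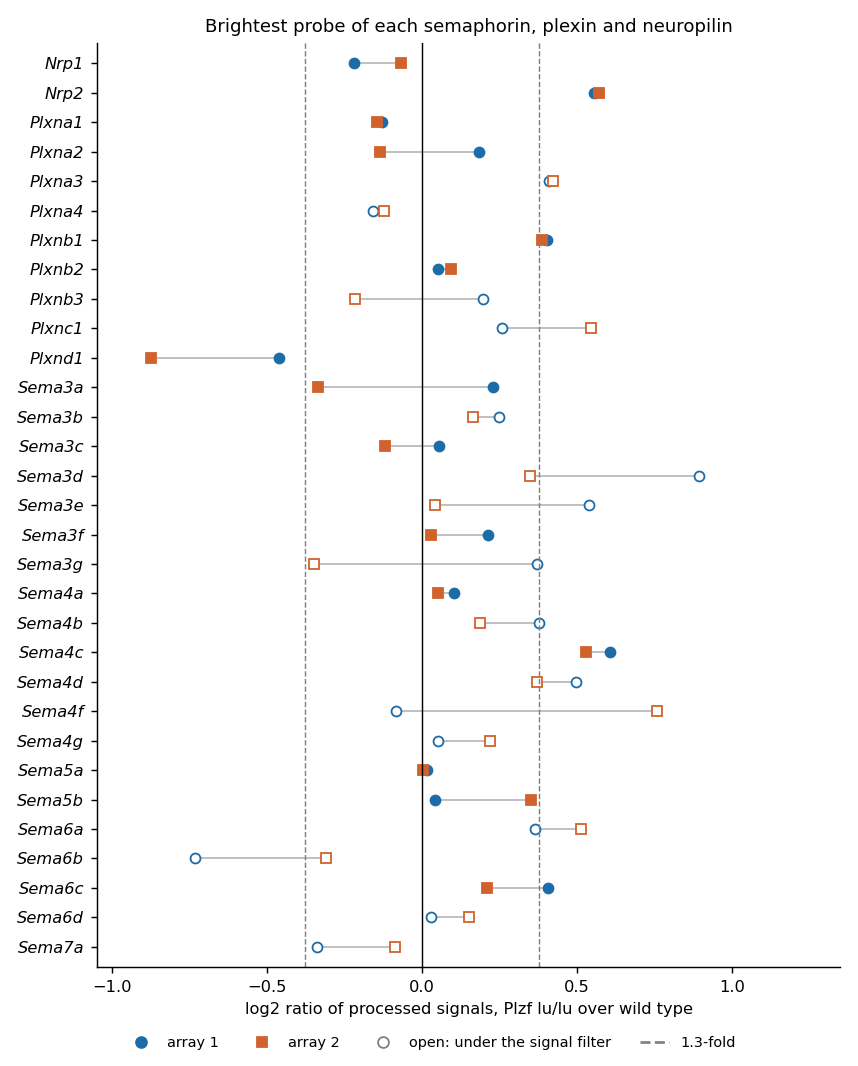
Log2 ratio of processed signals (Plzf lu/lu over wild type) on array 1 (circles) and array 2 (squares) for the brightest probe of each of the 31 genes, with open symbols for the 16 genes under the signal filter and dashed lines at 1.3-fold. Nrp2, Sema4c and Plxnb1 lie to the right of the upper line on both arrays, as does Plxna3 among the open symbols, and Plxnd1 lies to the left of the lower line.

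The sequences of the probes behind these 4 genes are shown first, because those of Nrp2 and Sema4c have a feature in common that the others lack. Each line gives a stretch of 30 bases, 5′ to 3′, with capitals for a repeat of TG or for the hexamer AATAAA or ATTAAA, the usual letters of a polyadenylation signal.
Nrp2, NM_001077406, bases 26 to 55 of the probe at chr1:62843061-62843120: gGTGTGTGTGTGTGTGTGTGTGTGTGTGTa
Sema4c, NM_001304330, bases 1 to 30 of the probe at chr1:36605998-36606057: aaTGTGTGTGTGTGTGTGTGTGTGTtgtaa
Plxnb1, NM_172775, bases 30 to 59 of the probe at chr9:109021092-109021151: ctatagctcttcATTAAAggataacacata
Plxnd1, NM_026376, bases 24 to 53 of the probe at chr6:115904829-115904888: aacattctttatAATAAAagcctgccggga
Positions are in build mm9 as deposited, on the minus strand for Sema4c and Plxnd1 and on the plus strand for the other two genes, and whether a probe lies in a coding exon or a UTR was not determined here. The TG repeat was 28 bases long in the Nrp2 probe and 23 in the Sema4c probe. In the remaining 75 member probes it was at most 6 bases. These were also the only member probes, 2 of 77, that shared 20 or more bases in a row with probes of other gene names, 53 of them for Nrp2 and 50 for Sema4c.

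The values of the neuropilins depended on the probe. Nrp2, the receptor of Sema3f and of lymphatic growth factors, had processed signals at its brightest probe of 6901 and 6630 in wild type and of 10130 and 9852 in Plzf lu/lu on arrays 1 and 2. Both Plzf lu/lu signals were above both wild type signals, a separation that 30.7% of all genes tested showed in this direction and 26.5% in the other, and that 7 and 2 of the 15 members showed. The log2 ratios were 0.55 and 0.57, with a mean of 0.56 ± 0.01 (SD, n = 2 arrays; adjusted p = 0.0510 by limma). A second Nrp2 probe that passed the filter (NM_001077403, chr1:62865129-62865188) has no such repeat, and bases 31 to 60 of it are the following.
Nrp2, NM_001077403: tactgtgattcttcaatgtaaaaAATAAAa
Its signals were 903.1 and 1130 in wild type and 924.9 and 1026 in Plzf lu/lu, and the genotypes overlapped. The log2 ratios were 0.03 and -0.14, with a mean of -0.05. The probes also belong to different transcript records, so a difference between transcripts and the repeat cannot be told apart.

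Nrp1, the receptor of Sema3a and a partner of the receptors for vascular endothelial growth factor, was tested on a probe at chr8:131027137-131027196. Its signals were 275.9 and 229.1 in wild type and 236.9 and 218.6 in Plzf lu/lu. The log2 ratios of -0.22 and -0.07 were both below 0 and within 1.3-fold (adjusted p = 0.297 by limma). A dimmer Nrp1 probe, at chr8:131028306-131028365, had 87.34 and 71.56 in wild type and 55.87 and 54.29 in Plzf lu/lu, with log2 ratios of -0.64 and -0.40. Both probes thus had lower signals in Plzf lu/lu on both arrays, and the dimmer one did so beyond 1.3-fold.

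Among class 4 semaphorins, which span the membrane and mostly act through plexins of the B group, Sema4c showed the same split between probes. Sema4c, a ligand of plexin B2, gave 10220 and 9674 in wild type and 15540 and 13960 in Plzf lu/lu at the probe with the repeat, with no overlap of the genotypes. The log2 ratios were 0.61 and 0.53, with a mean of 0.57 ± 0.05 (SD, n = 2 arrays; adjusted p = 0.0510 by limma). The other Sema4c probes carry the same accession. The nearer one lies beside it at chr1:36606063-36606122, and bases 16 to 45 of it and of the farther one, at chr1:36612857-36612916, are printed here to show that the repeat is absent.
Sema4c, nearer probe: tcaagatgtgggcgtgtttgtgcatatatg
Sema4c, farther probe: accctgggtgtctgccatggccccacactg
The nearer probe had 82.5 and 121.5 in wild type and 73.8 and 87.27 in Plzf lu/lu, log2 ratios of -0.16 and -0.48. The farther probe had 33.78 and 38.31 in wild type and 36.76 and 42.53 in Plzf lu/lu, log2 ratios of 0.12 and 0.15. Both were under the signal filter, though well above background in all 4 channels, and neither was higher by 1.3-fold.

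Ratios like those of Nrp2 and Sema4c were found at every probe with a long TG repeat. The arrays held 48 probes of 48 genes with a TG repeat of 20 bases or more, these 2 among them, and all 48 passed the signal filter and were higher in Plzf lu/lu by more than 1.3-fold on both arrays. Their log2 ratios ran from 0.46 to 0.71 on array 1 and from 0.45 to 0.67 on array 2, with medians of 0.58 and 0.56. The probe with the longest repeat, 41 bases in Zcchc9, had 0.59 and 0.54, and the next, 38 bases in Pak4, had 0.65 and 0.62. With a repeat of 16 to 19 bases, 20 of 22 passing probes were higher by the rule (90.9%), with 12 to 15 bases 26 of 34 (76.5%), with 8 to 11 bases 13 of 69 (18.8%), and under 8 bases 193 of 13013 (1.48%). The complementary CA repeat of 20 bases or more was held by 28 passing probes, none of which was higher or lower by the rule. Their medians were -0.13 and -0.04.

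The other genes with the long repeat showed the same split between probes. For 10 of them, 13 further probes with no TG repeat of 8 bases passed the filter, and 0 of the 13 were higher by more than 1.3-fold on both arrays, with median log2 ratios of 0.00 and -0.13. Of the 274 genes called higher over the whole array, 92 were called on a probe with a TG repeat of 12 bases or more. When such probes were left out, an alternative chosen after seeing the data, 14 members were tested, Plxnb1 was the only one higher and Plxnd1 the only one lower. Over all genes 1.73% were then higher and 0.742% lower. Whether the Nrp2 and Sema4c signals came from those transcripts or from other RNA with the repeat cannot be told apart on these arrays. A dye effect of probes with the repeat and the genotype cannot be told apart either, since Plzf lu/lu was Cy5 on both arrays.

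**Figure D2:**
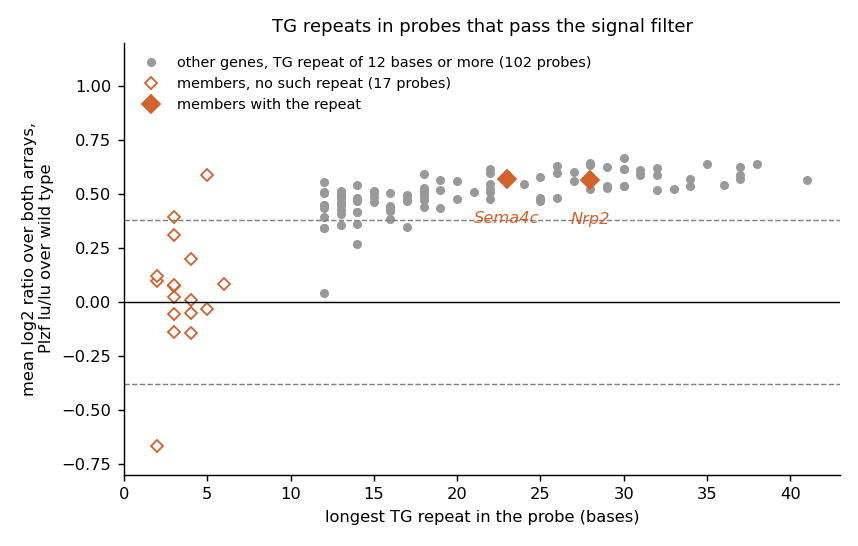
Mean log2 ratio over both arrays against the length of the longest TG repeat, for 102 passing probes of other genes with a repeat of 12 bases or more (gray), the 17 passing member probes without one (open diamonds) and the probes of Nrp2 and Sema4c that hold one (filled diamonds). The filled diamonds lie among the gray points, above the upper dashed line at 1.3-fold, while the members without the repeat spread from -0.67 to 0.59.

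**Figure D3:**
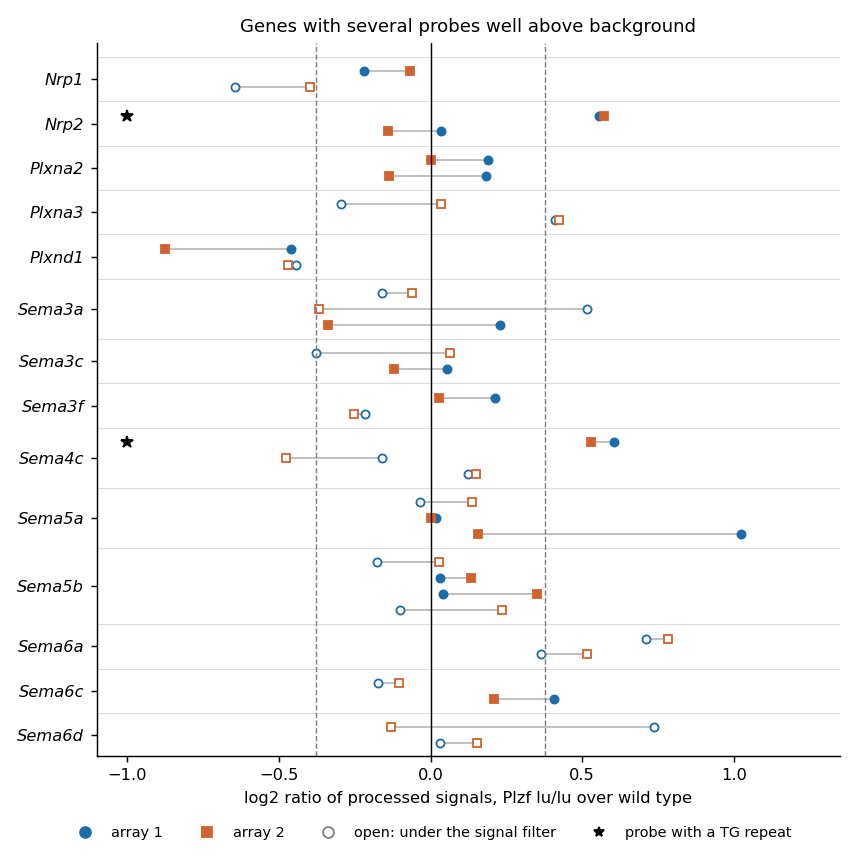
Log2 ratios on array 1 (circles) and array 2 (squares) of every probe well above background, for the members with several such probes, with open symbols under the signal filter, stars at the probes with a TG repeat and dashed lines at 1.3-fold. In Nrp2 and Sema4c only the starred probe lies beyond the upper line, whereas both Plxnd1 probes lie beyond the lower line.

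Plexins included a member that was higher and one that was lower on probes without the repeat. Plxnd1, the receptor of Sema3e, had signals of 904.6 and 870.5 in wild type and of 657.1 and 474.9 in Plzf lu/lu, and the genotypes did not overlap. The log2 ratios were -0.46 and -0.87, with a mean of -0.67 ± 0.29 (SD, n = 2 arrays; adjusted p = 0.0566 by limma), or 0.63 of the wild type signal. The second Plxnd1 probe, under the signal filter, had 101.3 and 104.2 in wild type and 74.47 and 75.17 in Plzf lu/lu, with log2 ratios of -0.44 and -0.47. Plxnd1 was thus lower beyond 1.3-fold on both arrays at both of its probes, without overlap of the genotypes at either. In a bulk sample, fewer cells of a type and less RNA per cell cannot be told apart.

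Plxnb1, a receptor of Sema4d, had signals of 535.2 and 532.5 in wild type and of 706.8 and 696.4 in Plzf lu/lu at its single probe, and the genotypes did not overlap. The log2 ratios of 0.40 and 0.39 were just beyond the threshold, at 1.32-fold and 1.31-fold, with a mean of 0.39 ± 0.01 (SD, n = 2 arrays; adjusted p = 0.0609 by limma). No second probe was there to set beside it. With background-subtracted signals centred on the median in place of the dye normalization, its mean log2 ratio was 0.37 and it no longer passed 1.3-fold on both arrays. Its adjusted p in that setting was 0.0448 by limma, where 899 of 10600 genes were under 0.05. Plxnb2, the receptor of Sema4c in the developing brain, had 3589 and 2969 in wild type and 3719 and 3169 in Plzf lu/lu, log2 ratios of 0.05 and 0.09. The 95% interval of its mean log2 ratio by limma, -0.11 to 0.26, lay within 1.3-fold in both directions.

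**Figure D4:**
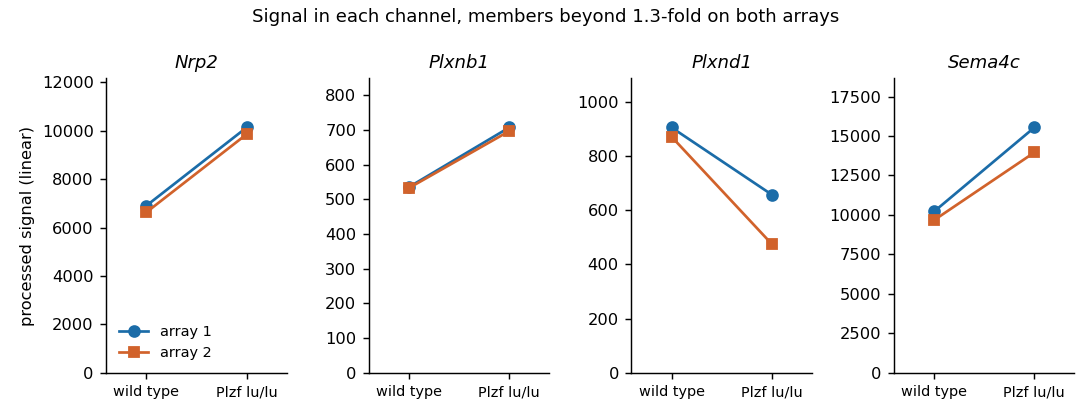
Processed signal (linear scale from 0, a different range in each panel) in wild type and Plzf lu/lu, joined by array, for the 4 members beyond 1.3-fold on both arrays. The brightest probe of Nrp2 and Sema4c, which hold the TG repeat, and that of Plxnb1 are higher in Plzf lu/lu on both arrays, and Plxnd1 is lower.

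Plexins of the A group, the signaling partners of neuropilins, differed little at the probes that passed. Plxna1 had 773.5 and 711 in wild type and 706.4 and 642.6 in Plzf lu/lu, log2 ratios of -0.13 and -0.15 (adjusted p = 0.278 by limma), and the genotypes did not overlap. Plxna2 went in opposite directions on its brightest probe, with log2 ratios of 0.18 and -0.14. A second Plxna2 probe that passed had log2 ratios of 0.19 and 0.00. Plxna3 was under the filter. Its brighter probe (chrX:71589963-71590022) had 159.4 and 160.1 in wild type and 211.8 and 214.6 in Plzf lu/lu, log2 ratios of 0.41 and 0.42. Its dimmer probe (chrX:71589225-71589284) had 85.07 and 71.48 in wild type and 69.34 and 73.27 in Plzf lu/lu, log2 ratios of -0.29 and 0.04, so the probes of Plxna3 did not go the same way. Plxna4 had log2 ratios of -0.16 and -0.12, under the filter. Plxnb3 (0.20 and -0.22) and Plxnc1, the receptor of Sema7a (0.26 and 0.55), were also under it.

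Of the secreted class 3 semaphorins, 3 of 7 were tested and none was beyond 1.3-fold on both arrays. Sema3a, a repellent of axons that binds Nrp1, had 263.3 and 299.6 in wild type and 308.2 and 237.3 in Plzf lu/lu, so its log2 ratios of 0.23 and -0.34 differed in sign. A second Sema3a probe at chr5:13600898-13600957 had 206.1 and 250.9 in wild type and 294.3 and 194.6 in Plzf lu/lu, and split between the arrays in the same way, with 0.51 and -0.37. A dim Sema3a probe had 32.21 and 28.31 in wild type and 28.86 and 27.14 in Plzf lu/lu, log2 ratios of -0.16 and -0.06. Sema3c had 0.05 and -0.12. Sema3f, the ligand of Nrp2, had 1476 and 1545 in wild type and 1712 and 1575 in Plzf lu/lu, log2 ratios of 0.21 and 0.03, while its dimmer probe had 101 and 97.04 in wild type and 86.93 and 81.51 in Plzf lu/lu, log2 ratios of -0.22 and -0.25. The direction of Sema3f therefore depended on the probe. The 4 genes under the filter were Sema3b (0.25 and 0.16), Sema3d (0.89 and 0.35), Sema3e, the ligand of plexin D1 (0.54 and 0.04), and Sema3g (0.37 and -0.35). Sema3d had 117.8 and 148.7 in wild type and 218.9 and 189.2 in Plzf lu/lu, with no overlap of the genotypes, but passed 1.3-fold on array 1 only.

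The remaining membrane semaphorins were mostly near or under the limit of the filter. Sema4a had log2 ratios of 0.10 and 0.05. Sema4d, the ligand of plexin B1, was under the filter with 118.1 and 102.5 in wild type and 166.4 and 132.6 in Plzf lu/lu, log2 ratios of 0.50 and 0.37, without overlap and just short of 1.3-fold on array 2. Sema4b (0.38 and 0.19), Sema4f (-0.08 and 0.76) and Sema4g (0.05 and 0.22) were dimmer, with mean log2 ratios from 0.13 to 0.34. The highest of these means, that of Sema4f, rested on array 2. In class 5, Sema5b had 383.3 and 356.3 in wild type and 394.4 and 454.7 in Plzf lu/lu, log2 ratios of 0.04 and 0.35. A second Sema5b probe that passed had 281.1 and 321.2 in wild type and 287.4 and 352.5 in Plzf lu/lu, log2 ratios of 0.03 and 0.13. Of its dimmer probes, one had 86.25 and 83.47 in wild type and 80.41 and 98.17 in Plzf lu/lu (-0.10 and 0.23), and the other had 34.72 and 36.44 in wild type and 30.71 and 37.18 in Plzf lu/lu (-0.18 and 0.03). All 4 Sema5b probes were within 1.3-fold on both arrays. Sema5a was at 0.02 and 0.00 on its brightest probe (AK045236, chr15:32493248-32493307). The other Sema5a probe that passed (NM_009154, chr15:32626025-32626084) had 227.1 and 320.2 in wild type and 461.1 and 356.5 in Plzf lu/lu, log2 ratios of 1.02 and 0.16, so its higher signal rested on array 1.

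In class 6, whose members bind plexins of the A group, Sema6c was tested on a probe with 223.1 and 248 in wild type and 295.6 and 286.7 in Plzf lu/lu, log2 ratios of 0.41 and 0.21 (adjusted p = 0.101 by limma). Its dimmer probe had 168 and 187.2 in wild type and 149 and 174.1 in Plzf lu/lu, log2 ratios of -0.17 and -0.10, the opposite direction. Sema6a, under the filter, had 2 probes well above background that went the same way. The brighter had 105 and 103.2 in wild type and 135.1 and 147.4 in Plzf lu/lu, log2 ratios of 0.36 and 0.51, and the dimmer had 42.39 and 43.28 in wild type and 69.41 and 74.52 in Plzf lu/lu, log2 ratios of 0.71 and 0.78. At both Sema6a probes the Plzf lu/lu signals were above all wild type signals. Of the genes that passed the filter, 30.7% showed this separation at their brightest probe, and the share under the filter was not counted. Sema6b had a log2 ratio of -0.73 on array 1 and of -0.31 on array 2 at signals from 19.89 to 38.55. Sema6d had 0.03 and 0.15 at its brightest probe, and 0.74 and -0.13 at a dimmer one well above background. Sema7a, the lipid-anchored member, had -0.34 and -0.09.

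Every one of the 16 genes under the filter was well above background in all 4 channels at its brightest probe, with signals from 11.42 to 218.9. By that probe Plxna3 was higher by more than 1.3-fold on both arrays and no gene was lower, beside 2.46% and 3.18% of the 12683 genes of all kinds in the same position. The log2 ratios of 10 of the 16 were above 0 on both arrays and those of 3 were below 0 on both, beside 30.3% and 31.4% of such genes. Their median log2 ratio was 0.24, beside 0.00 for all such genes. These ratios are of low signals, and no test was made on them. How often the genotypes separate without overlap among genes under the filter was not counted.

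Genes of the pathway beyond the family were read from lists of co-receptors, of growth factors that bind neuropilins and of signal transducers. Beside 2.58% of all genes tested higher and 0.736% lower by the rule, 5 of 17 co-receptors were tested and 1 was beyond 1.3-fold on both arrays. This was Nrcam, an adhesion molecule that associates with neuropilins, with 280.6 and 342 in wild type and 660.3 and 759.5 in Plzf lu/lu, log2 ratios of 1.23 and 1.15 (adjusted p = 0.0394 by limma, 1 of the 3 genes under 0.05 on the array). Kdr, the main receptor of vascular endothelial growth factor and a partner of Nrp1, fell short of the filter at 260.8 and 318.6 in wild type and 179.5 and 160.2 in Plzf lu/lu, log2 ratios of -0.54 and -0.99. None of the 3 tested growth factors of 5 was beyond 1.3-fold on both arrays, and Vegfa had 0.29 and 0.38. Figf, a growth factor under the filter, had 60.35 and 50.19 in wild type and 80.3 and 68.31 in Plzf lu/lu. Its log2 ratios of 0.41 and 0.44 were beyond 1.3-fold on both arrays, in the direction opposite to Kdr. Of all genes under the filter and well above background, 2.46% were higher by this rule. Of the signal transducers, 28 of 35 were tested, 1 was higher by the rule and 0 were lower, beside 2.58% and 0.736% of all genes. The higher one was Dpysl2 (CRMP2), the collapsin response mediator that acts downstream of Sema3a, with 3085 and 3344 in wild type and 4757 and 4534 in Plzf lu/lu, log2 ratios of 0.62 and 0.44 (adjusted p = 0.0518 by limma). The longest TG repeat was 3 bases in the Nrcam probe and 5 bases in that of Dpysl2.

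Markers of cell types are given beside these values. Of 17 endothelial genes 6 were tested. All 6 had log2 ratios below 0 on both arrays, as did 3749 of all 10600 genes, with Cd34 at -0.003 on array 1. The median of the 6 was -0.54, and 3 were lower by more than 1.3-fold (Emcn, Icam2 and Plvap), beside 0.736% of all genes. The summed signal of the 17 was 7543 and 8624 in wild type and 6361 and 5818 in Plzf lu/lu, and all 17 were well above background in every channel. Of those under the filter, Sox17 had 0.40 and 0.25 and Pecam1 had 0.04 and -0.34, while the rest were below 0 on both arrays. Plxnd1 and both Nrp1 probes had lower signals, as did most of this list, of which Kdr is itself a member. The part of endothelial cells in these values was not tested. Of 15 neuronal genes 12 were tested, 3 were higher by the rule and the median log2 ratio was 0.17 on array 1 and 0.74 on array 2. All 3 tested floor plate genes of 7 were higher by the rule, with a median of 0.97. Those under the filter passed 1.3-fold on array 2 only. They were Foxa1 (0.13 and 0.91), Ntn1 (0.09 and 1.00), Spon1 (0.31 and 0.96) and Ferd3l (-0.09 and 0.68). By the same rule 2.58% of all genes tested were higher. The part of these cell types in the values of Plxnb1, Nrcam and Dpysl2 was not tested. The markers of primitive erythrocytes had medians of -1.07 on array 1 and 0.08 on array 2.

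Zbtb16 itself had 433.2 and 546.4 in wild type and 171.8 and 210.9 in Plzf lu/lu, log2 ratios of -1.33 and -1.37, in the direction of the labels. On its chromosome, Sema7a lay 9.35 Mb from Zbtb16 and Plxnb1 60.6 Mb away. The ratio was also related to the GC content of the probe, with a Spearman correlation of -0.33 across the 10600 genes, and the tested members ran from 35% to 53.3% GC.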

How the data were processed

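RNA from the brains of wild type (Cy3) and Plzf lu/lu (Cy5) embryos was measured on 2 arrays of a single slide, read in the same scan. The authors extracted the signals with Feature Extraction 10.7.3.1, with local background subtraction and, per array, rank-consistency LOWESS to balance the dyes. The deposited files give processed intensity and a log10 ratio (Cy5 over Cy3), and a further deposited file gives that ratio as log2. Probe positions (build mm9), names and sequences were taken from the deposited annotation.

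Control and outlier spots were left out (137 and 126 of 59305 gene spots, none of a member), and spots of 1 probe were averaged as log2 intensity. Genes with several probes were read from the brightest. The filter of the methods (signal above 200, signal-to-noise ratio of at least 5) was required of every channel. An intercept was fitted to the log2 ratios of 10600 genes by lmFit and eBayes of limma 3.58.1 (R 4.3.3), with Benjamini-Hochberg adjustment. The labels call the samples biological replicates, and with 1 residual degree of freedom a gene's own spread weighs little beside the variance shared by all genes. Signals were called separated after each array was shifted to a common median of log2 signal. A TG repeat was the longest run of TG read from either base of the unit. Other software was Python 3.11.15 with matplotlib 3.10.9, pandas 2.3.3 and numpy 2.4.6, and the data.table package (1.17.8).

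The members and lists were chosen with earlier results of these data known. Signals in all 4 channels are given for members beyond 1.3-fold on both arrays, and for members whose probes well above background differed in the sign of their mean ratio. Probes not well above background were left out of this comparison. The alternatives were normexp (offset 50) with loess, background-subtracted signals centred on the median, the log2 file, 3 other filters, the mean over probes, each probe alone, removal of the GC trend, a trend in eBayes, unpaired channels, 1.5-fold, each array alone and their mean. Columns of the authors' error model (p-values of the ratio) were not used. No sequence of Sema6a or of the second Plxnd1 probe is reported here.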

Additional observations from a re-analysis of the deposited data

Results flagged for a closer look

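A pair of results lay in data that the comparison of genes passing the filter did not use. The brighter probe of Plxna3, under the signal filter and well above background in every channel, had a mean log2 ratio of 0.42, beyond 1.3-fold on both arrays. The dimmer Plxna3 probe had log2 ratios of -0.29 and 0.04. Of all genes under the filter and well above background, 2.46% were higher by this rule at their brightest probe. The dimmer of the Sema6a probes well above background had a mean log2 ratio of 0.75, also beyond 1.3-fold on both arrays. The brighter Sema6a probe, at 0.36 and 0.51, fell short of 1.3-fold on array 1. The part of cell types or of dye in either flagged value was not tested.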

How the results depend on the processing

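The count of members at an adjusted p under 0.05 was 0 and became 4 with background-subtracted signals centred on the median, 2 with each probe on its own, 3 with a trend in eBayes and 2 for the channels without the pairing by array (no replicate block). Over all genes or probes tested, the count rose in the same settings, from 3 of 10600 to 899 of 10600, 233 of 13186, 393 of 10600 and 135 of 10600. The cause was not tested. With background-subtracted signals the 4 members were Sema4c, Nrp2, Plxnd1 and Plxnb1 (adjusted p = 0.0204, 0.0228, 0.0297 and 0.0448 by limma). Sema4c and Nrp2 were read there on the probes with the TG repeat. The number of members passing was 15 and became 31 both with well above background as the filter and with no filter, which by construction admit dim genes. At 1.5-fold, 0 members were higher and 0 lower. With each array alone, the count of members higher ran from 3 to 4 and that of members lower was 1 on both. Leaving out probes with a TG repeat, chosen after seeing the data, gave 1 member higher, and the mean log2 ratio of Nrp2 became -0.0527, from its other probe. The mean over the passing probes of Nrp2 was 0.25. Plxna2 changed sign to -0.0479 with background-subtracted signals and to -0.0608 with the GC trend removed, Sema5a to -0.0512 and -0.0741, and Sema4a to -0.00676 with the GC trend removed, all close to 0. Of 89 recomputed means of members under the other settings on both arrays, the removal of TG probes included, 83 kept their sign. Plxnd1 stayed between -0.68 and -0.59 in the settings on both arrays, and was -0.46 on array 1 alone and -0.87 on array 2 alone. Precision is limited by the 2 arrays, and for the 16 genes under the filter by their low signal.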
